A study of Mus musculus with 4 samples.

Results

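The high mobility group (HMG) genes described in embryonic lung were *Hmga2*, *Hmgb1*, *Hmgb2*, *Hmgb3*, *Hmgn1*, *Hmgn2*, *Hmgn3* and *Hmgn5*, 8 of the 19938 genes with a value. They are a chosen set and not every HMG gene on the arrays. *Hmgb4* and *Hmgb1-rs17*, a copy of *Hmgb1*, also had a probe set of their own, and both are given apart below and enter no count of the 8. These 8 were taken by name from the platform's annotation, 1 probe set per gene, and a gene with several was represented by the probe set with the highest mean. RNA of whole lung at embryonic day 18.5 was hybridised to Affymetrix arrays, with 2 arrays from C57BL/6 WT mice and 2 from C57BL/6 mice labelled *Hmga2* KO. The knockout is constitutive, carried by every cell of the embryo, and the sources used here name neither litter, sex nor any pooling of embryos. The arrays are labelled as biological replicates and the methods speak of duplicates, but both WT titles carry the same group name, WT1, whereas the KO titles carry KO1 and KO2. Whether the WT arrays come from separate embryos is thus not certain, and p values, which are limma's throughout, measure the spread between these arrays only. Values are log2 summaries made by RMA, a method that normalises arrays to a common distribution, and a difference is always the mean of the KO-labelled arrays minus the mean of the WT arrays.

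HMG proteins are abundant chromatin proteins other than histones, and they fall into 3 families by the way they hold chromatin. HMGA proteins carry AT-hooks, short motifs that enter the minor groove of AT-rich DNA. HMGB proteins carry HMG boxes, which bend DNA, and HMGN proteins bind the nucleosome core itself, where they compete with linker histone H1. The families are in general known for high expression in embryonic and dividing cells and for a decline as tissues mature. Outside the cell HMGB1 is also an alarm signal, which acts through receptors on leukocytes and epithelium.

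Upstream sequence was available for 7 of the 8 genes from RefSeq (build GRCm38.p6), and *Hmgn3* had no entry. The 250 bases before the start site were searched on both strands for CCAAT, the letters bound by the factor NF-Y, and for TTTGAA or TTCGAA, the core of the cell cycle element called CHR. *Hmgb2* held 4 copies of CCAAT and 2 of TTTGAA, 1 on each strand, and *Hmgb3* held 3 copies of CCAAT and 1 of TTTGAA. *Hmga2* held neither. These windows are printed because *Hmgb2* and *Hmgb3* are among the members with the largest differences below and *Hmga2* is the one with the smallest, and capitals mark either motif on either strand.

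*Hmgb2* (chr8:57511593-57511842, plus strand): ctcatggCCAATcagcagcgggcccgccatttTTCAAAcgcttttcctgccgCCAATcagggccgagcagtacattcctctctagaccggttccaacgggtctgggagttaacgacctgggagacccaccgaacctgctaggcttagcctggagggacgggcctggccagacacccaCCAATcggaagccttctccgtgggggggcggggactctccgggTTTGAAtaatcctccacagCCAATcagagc
*Hmgb3* (chrX:71555667-71555916, plus strand): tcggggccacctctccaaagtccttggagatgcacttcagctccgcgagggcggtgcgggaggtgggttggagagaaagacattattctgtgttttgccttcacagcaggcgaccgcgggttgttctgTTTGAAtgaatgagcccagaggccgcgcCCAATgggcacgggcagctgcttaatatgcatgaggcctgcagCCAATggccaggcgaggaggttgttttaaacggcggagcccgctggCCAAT
*Hmga2* (chr10:120476470-120476719, minus strand): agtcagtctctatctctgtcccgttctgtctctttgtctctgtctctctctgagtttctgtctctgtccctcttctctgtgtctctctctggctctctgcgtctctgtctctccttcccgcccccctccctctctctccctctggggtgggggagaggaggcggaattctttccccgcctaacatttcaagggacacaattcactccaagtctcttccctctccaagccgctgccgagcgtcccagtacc

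In each printed window no marked motif overlapped another. Over 32851 RefSeq promoter windows of the same length, 33.8% held CCAAT, 17.1% held TTTGAA or TTCGAA, 2.79% held CCAAT 3 times or more, and 0.451% held CCAAT 3 times or more together with TTTGAA or TTCGAA, as the *Hmgb2* and *Hmgb3* windows did. Of the other members, *Hmgb1* held 3 copies of CCAAT in 1 of its 2 windows, *Hmgn1* and *Hmgn5* held 2 each, and *Hmgn2* held none in its window. None of these windows held TTTGAA or TTCGAA, including that of *Hmgn5*, the member with the largest difference. Words of the cell cycle factor E2F (TTTGGCGC, TTTCCCGC, TTTGCCGC or TTTCGCGC) were searched as well. They were found in no window of a member and in 1.86% of all windows. GGGCGG, the core bound by SP1 and found in 32.7% of windows, was present in at least 1 window of every member with an entry except *Hmgn5*. The *Hmga2* window was 70.8% C or T, whereas those of the other members lay between 40.8% and 52.8%. A match describes letters and is not a measured binding site.

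*Hmga2* is the targeted gene. In WT its probe set read 9.35 and 9.59 on the log2 scale, and with the KO label it read 9.65 and 9.39. The groups overlapped, with a WT array lowest and a KO-labelled array highest. The difference was 0.051 with a 95% interval of −0.33 to 0.43 (standard error, SE, 0.16; limma, adjusted p = 0.892), and it was negative against WT replicate 2 alone (−0.07). The largest fall inside the interval was thus −0.33 on this scale. Its position relative to the deletion is unknown, so the reading checks nothing about genotype, and directions are those of the arrays as labelled.

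The other 7 genes all had higher values in both KO-labelled arrays than in either WT array. Over all genes, 17.6% were separated in that direction and 31.8% in the other. None of the 8 genes passed the test at an adjusted p under 0.05 in limma, where 156 of 19938 genes did, or 0.782%. Of these 16, or 0.0802% of all genes, were higher and 140 lower in the KO-labelled arrays. Median centring of the arrays gave a split of 73 higher and 221 lower, and cyclic loess one of 70 and 265. At an unadjusted p under 0.05, 5 of the 8 were higher, against 5.88% of all genes. The 1.2-fold limit of the study was reached upwards by 5 of 8, against 13.4% of all genes. In bulk tissue fewer cells of a type and less RNA per cell cannot be told apart.

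**Figure D1:**
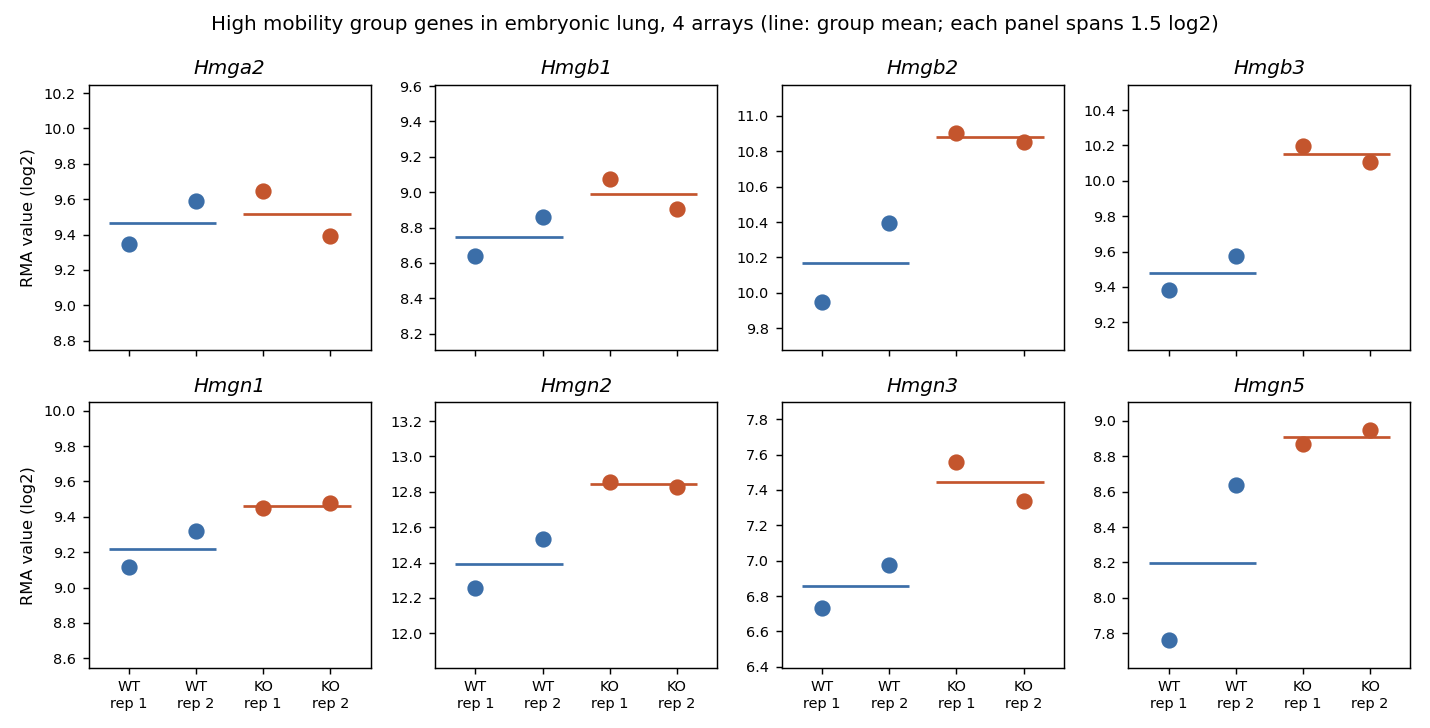
Log2 RMA values (vertical axis) of the 8 high mobility group genes in the 4 arrays (horizontal axis), with points for arrays and lines for group means. In every gene except *Hmga2* both points of the KO-labelled arrays sit above both WT points, and WT replicate 1 is the lowest point in all 8 panels.

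Among the HMGB genes, the difference was largest for *Hmgb2*, whose product is typical of dividing cells. Its log2 values were 9.95 and 10.39 in WT and 10.91 and 10.86 in the KO-labelled arrays. The KO-labelled arrays lay within 0.05 of each other, whereas the WT arrays were 0.45 apart. The difference was 0.71 (SE 0.18, adjusted p = 0.150), or 1.64-fold.

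*Hmgb3*, an X-linked gene with a role in blood stem cells, had 9.39 and 9.58 in WT and 10.20 and 10.10 in the KO-labelled arrays. Its WT arrays differed by 0.19, the smallest gap among the members, and the lowest KO-labelled array lay 0.53 above the highest WT array, the widest separation of the 8 genes. The difference of 0.67 (SE 0.14; adjusted p = 0.0993) was the closest to the threshold of any member.

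*Hmgb1*, the most widely expressed member of its family, had 8.64 and 8.86 in WT and 9.08 and 8.90 in the KO-labelled arrays. WT replicate 2 and KO replicate 2 lay only 0.042 apart. The difference was 0.24 (SE 0.15, adjusted p = 0.479).

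Among the nucleosome-binding HMGN genes, *Hmgn5* had the largest difference of all members and the largest error. This X-linked gene encodes an HMGN protein with a long acidic tail. Its log2 values were 7.76 and 8.63 in WT and 8.87 and 8.95 in the KO-labelled arrays. The WT arrays were 0.88 apart, wider than the difference of 0.71 (SE 0.28, adjusted p = 0.319). Against WT replicate 2 alone the difference was 0.27, and against WT replicate 1 alone it was 1.15.

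*Hmgn3* had 6.73 and 6.98 in WT and 7.56 and 7.34 in the KO-labelled arrays. Its arrays were separated by 0.36 at the closest, and the difference was 0.59 (SE 0.15, adjusted p = 0.163). *Hmgn2* had 12.26 and 12.53 in WT and 12.85 and 12.83 in the KO-labelled arrays. The difference was 0.45 (SE 0.15, adjusted p = 0.242), with 0.30 between the closest arrays of the groups. *Hmgn1*, which is close in sequence to *Hmgn2*, had 9.11 and 9.32 in WT and 9.45 and 9.48 in the KO-labelled arrays. Its difference of 0.25 (SE 0.14, adjusted p = 0.446) stayed under the 1.2-fold limit, as that of *Hmgb1* did.

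WT replicate 1 was the array least like the rest, with Pearson correlations over all probe sets of 0.976 to 0.985 against it and of 0.992 to 0.997 among the other 3. It was the lowest array for 8 of 8 HMG genes and for 37.0% of all genes. For 7 of 8 the order was WT replicate 1, WT replicate 2 and then both KO-labelled arrays, which 15.3% of all genes showed. Against WT replicate 2 alone the differences ran from −0.07 for *Hmga2* to 0.57 for *Hmgb3*, and 5 of 8 still reached 1.2-fold, against 6.01% of all genes. Without WT replicate 1, limma called *Hmgb2* (0.49, adjusted p = 0.0249), *Hmgb3* (0.57, adjusted p = 0.00442) and *Hmgn3* (0.47, adjusted p = 0.0331), among 2.53% of all genes called higher. Without WT replicate 2 it called *Hmgb2*, *Hmgb3*, *Hmgn2*, *Hmgn3* and *Hmgn5*, among 16.7% of all genes called higher. A fit with a lone WT array takes its residual spread from the KO-labelled arrays, and in both such fits limma gave the same SE, 0.155, to each of the 126 member, list and marker genes. Calls and p values in these fits thus rank genes by the size of the difference alone and hold nothing of a gene's own spread.

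**Figure D2:**
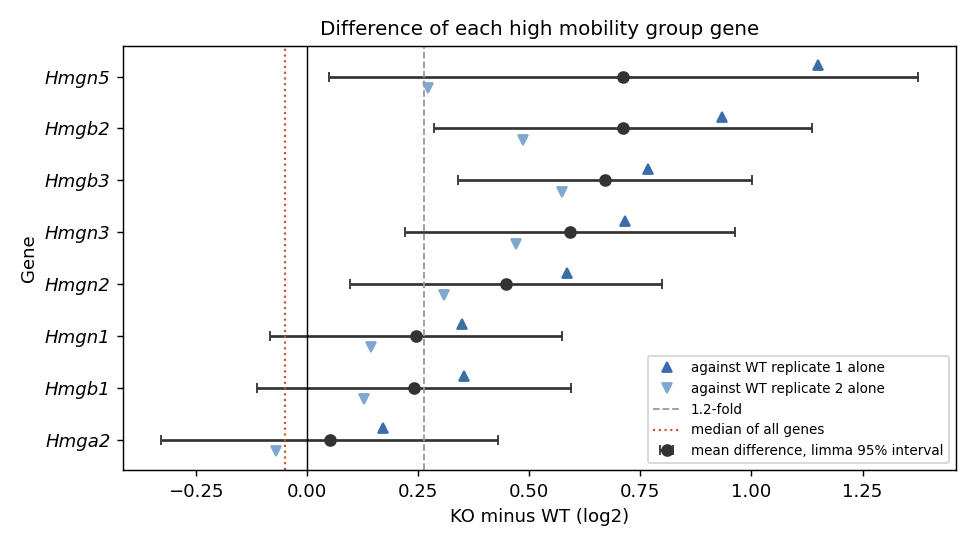
Difference on the log2 scale (horizontal axis) for each gene (vertical axis), with the mean of both WT arrays as reference (circles, bars are limma 95% intervals) or 1 WT array alone (triangles). The intervals of *Hmga2*, *Hmgb1* and *Hmgn1* include 0 and those of the other 5 genes do not, and every gene has its smaller difference against WT replicate 2.

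Several HMG genes were measured by more than 1 probe set, 16 in all for the 8 genes. The 4 of *Hmgb2* gave differences of 0.71 to 0.75, and the 2 of *Hmgb3* gave 0.67 and 0.72. The 5 of *Hmgn2* ranged from 0.45, in the brightest probe set, to 0.91 in the dimmest. Their mean gave 0.62 (adjusted p = 0.196). All 11 probe sets of *Hmgb2*, *Hmgb3* and *Hmgn2* kept both KO-labelled arrays above both WT arrays. *Hmgn2* has processed copies in the genome, so which copy its probe sets read is uncertain.

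*Hmgb1* also has many near-identical copies. Besides its own probe set, 34 probe sets listed it together with 1 to 4 other symbols, and 2 of these held identical values. Most of the 34 read far brighter than the probe set of *Hmgb1* alone, which lay at 8.64 to 9.08. These 34 cannot be assigned to 1 gene and were left out of the fit. Their differences were 0.22 to 0.41 with a median of 0.35, all 34 kept the groups apart, by 0.14 to 0.38 at the closest, and 32 reached 1.2-fold. Their WT arrays differed by at most 0.14. KO replicate 2 was above KO replicate 1 in 33 of them, whereas it was below in the probe set of *Hmgb1* alone. The copy *Hmgb1-rs17*, which has a probe set of its own, had 6.81 and 6.98 in WT and 7.38 and 7.27 in the KO-labelled arrays, a difference of 0.43. *Hmgb4*, an HMGB gene of the testis, overlapped between groups (0.03). *Hmga1*, the other HMGA gene, was not analysed here.

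**Figure D3:**
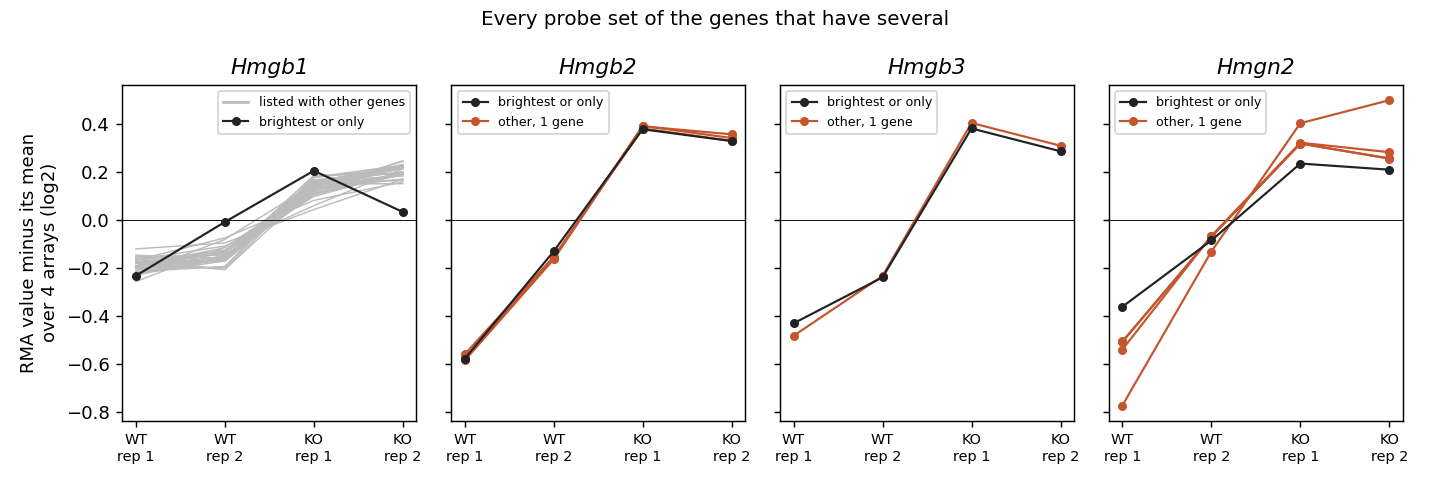
Log2 value of each probe set minus its own mean (vertical axis) in the 4 arrays (horizontal axis) for *Hmgb1*, *Hmgb2*, *Hmgb3* and *Hmgn2*, where a line joins the values of 1 probe set. The lines of *Hmgb2* and of *Hmgb3* nearly coincide, those of *Hmgn2* spread most in WT replicate 1, and the 34 grey lines of *Hmgb1* shared with other genes vary less between the WT arrays than its own probe set.

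The members were compared with each other by the root mean square difference of their gene-centred values over the 4 arrays. *Hmgb3* and *Hmgn3* were nearest to each other (0.062), followed by *Hmgb1* and *Hmgn1* (0.072) and by *Hmgb2* and *Hmgb3* (0.094). *Hmga2* and *Hmgn5* were farthest apart (0.42). Among all genes, the nearest to *Hmga2* were *Ttf1*, *Pcnp*, *Tex26*, *Meox2* and *Stambpl1*, at 0.0062 to 0.0096. *Ttf1* encodes a transcription termination factor of RNA polymerase I and *Meox2* a mesodermal homeobox factor. The nearest to *Hmgn5* were *Eif5a*, *Elovl2*, *Anp32b*, *Wbp11* and *H2bc1*, at 0.025 to 0.052. With 4 arrays such likeness depends on each array: of these 10 genes, 8 stayed among the nearest without the dimmest 40 percent of genes, and at most 1 did when any single array was left out.

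For *Hmgb2*, added after its values were seen, the nearest genes were *Haus5*, *Rbl1*, *Ddx11*, *Mybl2* and *Clip3*, at 0.015 to 0.026. *Mybl2* and *Rbl1* encode cell cycle regulators, *Ddx11* a DNA helicase and *Haus5* a subunit of the spindle complex augmin. The product of *Clip3* is not described here. *Mybl2*, for example, had 8.64 and 9.11 in WT and 9.63 and 9.52 in the KO-labelled arrays. Its order of arrays matches that of *Hmgb2* by selection, since these genes were picked for likeness over the same arrays. Whether they stay nearest when an array is left out was not tested.

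The partners of HMG proteins were described in 7 lists, by counts and by the median difference, which was −0.05 over all genes. The all-gene shares to read these counts against are 17.6% separated upwards and 31.8% separated downwards. None of the 77 genes measured in these lists passed the test over all genes with limma, whereas 5 had an adjusted p under 0.10, against 2.29% of all genes, and 36 an unadjusted p under 0.05, against 14.5%. Linker histones, which HMGN proteins displace from the nucleosome, were higher in both KO-labelled arrays than in either WT array for 5 of 5 measured, against 17.6% of all genes. Their median difference was 0.79, beside 0.52 for the 8 HMG genes, and against WT replicate 2 alone these medians were 0.51 and 0.29. *H1f1* had 11.02 and 10.80 in WT and 11.70 and 11.73 in the KO-labelled arrays, a difference of 0.81 (SE 0.14, adjusted p = 0.0693). Its lowest array was WT replicate 2. *H1f10* had the largest difference, 1.09, with WT arrays 9.26 and 10.42. *H1f5* differed by 0.79, *H1f2* by 0.43 and *H1f3* by 0.39. The list also names *H1f0* and *Hist1h1e*, which were not among the genes measured. Histone genes share sequence, so their probe sets may read several of them.

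HMG-box factors carry the same DNA-bending box as the HMGB proteins, within other proteins. Of 19 measured, 9 were separated upwards and 3 downwards, against 17.6% and 31.8% of all genes, and their median difference was 0.11. The largest was *Wdhd1*, a protein of the replication fork, with 8.60 and 8.99 in WT and 9.83 and 9.51 in the KO-labelled arrays (0.87, adjusted p = 0.110). Next were *Nsd2*, a histone methyltransferase (0.57), *Tcf7l1*, a WNT effector (0.54), *Tfam*, which packs mitochondrial DNA (0.52), *Tox4* (0.52) and *Tox* (0.51). *Pbrm1*, a subunit of a SWI/SNF remodeller, differed by 0.28. The other WNT effectors measured were *Lef1* (0.11), whose groups overlapped, and *Tcf7l2* (−0.15). AT-hook proteins, which share the DNA-binding motif of HMGA2, had a median difference of −0.03. Of 7 measured, 5 had a lower mean, as 58.8% of all genes did, and 2 a higher one. In each direction 1 was separated, *Baz2a* downwards (−0.29) and *Ahdc1* upwards (0.12). The largest difference was that of *Kmt2a* (−0.34), whose groups overlapped and whose difference was 0.04 against WT replicate 2 alone. *Setbp1* (−0.21) overlapped too.

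The SET complex includes HMGB2 among its known subunits, with DNA repair and nuclease activities. The repair endonuclease *Apex1* had 8.84 and 9.30 in WT and 9.85 and 9.69 in the KO-labelled arrays, a difference of 0.70. The nucleoside diphosphate kinase *Nme1* differed by 0.72 and *Anp32a* by 0.32, and all 3 were separated upwards. *Set* itself was separated downwards (−0.43), as was the exonuclease *Trex1* (−0.13). The probe set of *Set* read low, at 6.06 to 6.67, and the mean over all its probe sets gave −0.27 (limma, adjusted p = 0.416). None of the genes of this list passed the test, with adjusted p of 0.166 or more from limma.

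Receptors and partners of secreted HMGB1 had a median difference of −0.41. Of 10 measured, 7 were separated downwards, against 31.8% of all genes, and none upwards. *Ager*, the HMGB1 receptor RAGE and a marker of alveolar type I cells, had 12.91 and 12.79 in WT and 11.98 and 12.01 in the KO-labelled arrays. Its difference of −0.85 (SE 0.13, adjusted p = 0.0511) did not pass the test. *Trem1* (−0.72), *Tlr4* (−0.68), *Tlr2* (−0.55) and the thrombomodulin gene *Thbd* (−0.53), which sequesters HMGB1 on endothelium, followed with adjusted p of 0.110 to 0.149. *Trem1* read low, at 5.76 to 6.73 over the arrays, as did *Tlr4*, at 6.78 to 7.62. Against WT replicate 2 alone the list's median was −0.45. The chemokine *Cxcl12*, its receptor *Cxcr4* and *Cd24a* overlapped between the groups. Markers of cells that hold these receptors gave the following values. The 5 immune genes measured were all separated downwards, against 31.8% of all genes. Only *Lyz2* of these was lower by the test (−1.76, adjusted p = 0.00803). Its WT values, 13.23 and 13.01, lay far above those of the other immune genes, of which the highest was 9.65 for *Csf1r*. The type I cell genes *Aqp5* (−2.20, adjusted p = 0.00339), *Pdpn* (−0.43) and *Hopx* (−0.48) were lower too, the latter 2 without passing the test, and the part of either cell type in the receptors' values was not tested.

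Genes linked to HMGA2 by earlier work or by the study that made these arrays, as upstream regulators or targets, had a median difference of 0.06. Of 18 measured, 7 were separated upwards and 3 downwards, against 17.6% and 31.8% of all genes. Among these 7 is *Ccna2*, which is also in the list of proliferation markers below. The cyclins *Ccna2* (0.83) and *Ccnb2* (0.87), the cell cycle factor *E2f1* (0.62), the mRNA-binding protein *Igf2bp1* (0.61) and the mesenchymal factors *Snai1* (0.77) and *Snai2* (0.53) had the smallest p, with adjusted p of 0.206 to 0.289 from limma. *Lin28b*, which blocks maturation of let-7, was separated downwards (−0.36). Its values were low, 5.43 and 5.51 in WT and 5.27 and 4.95 in the KO-labelled arrays, and with cyclic loess the difference was −0.21. *Gata6*, a regulator of lung endoderm, overlapped (0.08), as did the WNT receptor *Fzd2* (0.29). For both genes the study reports lower transcripts by quantitative RT-PCR and lower protein by western blot in knockout embryonic lung. The array values do not show that fall.

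**Figure D4:**
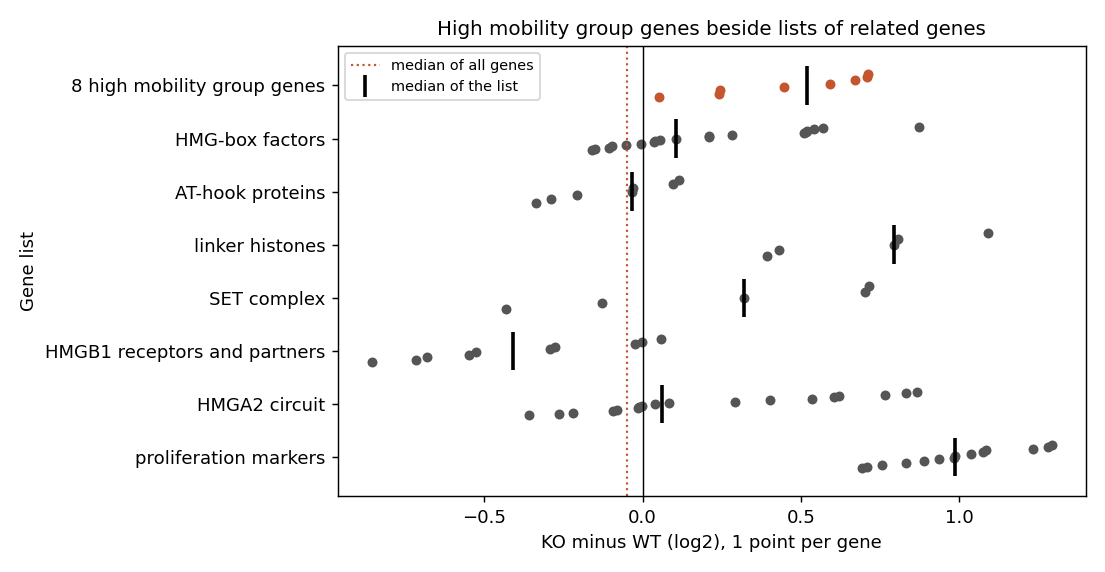
Difference on the log2 scale (horizontal axis) of each gene in the 8 high mobility group genes and 7 lists of related genes (vertical axis), with black bars for list medians and a dotted line for the median of all genes, −0.05. Linker histones and proliferation markers lie wholly above 0, HMGB1 receptors and partners lie mostly below 0, and HMG-box factors and AT-hook proteins scatter around it.

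Proliferation markers had the same order of arrays as 7 of the 8 HMG genes, an order that 15.3% of all genes showed. All 14 measured were separated upwards, against 17.6% of all genes. Their differences of means were 0.69 to 1.29 with a median of 0.99, which was 0.63 against WT replicate 2 alone. None passed the test, and all 14 had an unadjusted p under 0.05, against 5.88% of all genes that were higher at this p. *Mki67*, the gene of the Ki-67 antigen, had 11.12 and 11.24 in WT and 11.89 in each of the KO-labelled arrays (0.71, adjusted p = 0.0780). *Cenpf*, a kinetochore protein, differed by 0.89 (adjusted p = 0.0511) and *Tyms*, which makes thymidylate, by 0.99 (adjusted p = 0.0825). Mean log2 values over the list were 9.91 and 10.65 in WT and 11.31 and 11.21 in the KO-labelled arrays. Means over the 8 HMG genes were 9.15 and 9.49 in WT and 9.82 and 9.73 in the KO-labelled arrays. In both, WT replicate 1 was lowest and KO replicate 1 highest. The means of HMG-box factors, linker histones, the SET complex and the genes linked to HMGA2 had the same lowest and highest arrays. Over all genes the mean was lowest in KO replicate 2 and highest in WT replicate 2. The part of dividing cells in the HMG values was not tested.

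Markers of other cell types were read in the same way. Of 11 lung epithelial genes 7 were separated downwards, against 31.8% of all genes, and 2 upwards, the adhesion gene *Epcam* (0.69) and the lung regulator *Nkx2-1* (0.11). Among the lower ones limma called *Scgb1a1*, a secretory cell protein (−2.69, adjusted p = 0.00283), *Aqp5* and *Sftpa1*, a surfactant protein (−1.10, adjusted p = 0.0258). *Sftpc*, the surfactant gene that defines type II cells, had 14.13 and 14.05 in WT and 13.98 and 14.01 in the KO-labelled arrays. All 4 heart muscle genes were separated upwards, against 17.6% of all genes, and the atrial gene *Nppa* passed the test (1.78, adjusted p = 0.0172), with the list's mean between 9.05 and 9.31 in WT and between 10.06 and 10.29 in the KO-labelled arrays. Mesenchymal genes had a median of 0.04, endothelial genes of −0.26, and 2 erythroid genes of −0.38. Thymus (−0.13) and liver (−0.17) genes stayed within 1.2-fold. Their part in the HMG values was not tested.

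*Hmgb3* and *Hmgn5* lie on the X chromosome, so sex genes were read after the values of the members were seen. *Xist*, the RNA of the inactive X chromosome, read low in all 4 arrays, from 5.39 to 5.68, a span of 0.29. The Y-linked *Eif2s3y* had 10.22 and 9.72 in WT and 9.58 and 9.42 in the KO-labelled arrays, and *Kdm5d* and *Uty* also had their highest value in WT replicate 1. The spans of the 3 Y-linked genes were 0.52 to 0.80, and their values lay between 9.21 and 10.22. No array thus combined a high *Xist* value with low Y-linked values.

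The let-7 microRNAs are the known negative regulators of the *Hmga2* transcript, and their level rises as tissues mature. They were read after the values of *Hmga2* were seen. Mature sequences of 5 of them, from RefSeq (build GRCm38.p6), show the part that pairs with target transcripts, with the seed, bases 2 to 8, in capitals.

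let-7a-5p of *Mirlet7a-1* (chr13:48538239-48538260, minus strand): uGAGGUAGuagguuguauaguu
let-7c-5p of *Mirlet7c-1* (chr16:77599672-77599693, plus strand): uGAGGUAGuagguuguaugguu
let-7d-5p of *Mirlet7d* (chr13:48536078-48536099, minus strand): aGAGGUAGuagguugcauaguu
let-7f-5p of *Mirlet7f-1* (chr13:48537889-48537910, minus strand): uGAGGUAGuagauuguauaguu
miR-98-5p of *Mir98* (chrX:151913229-151913250, plus strand): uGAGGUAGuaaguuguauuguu

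All 5 share 1 seed. The arrays hold probe sets for 10 let-7 family genes, which read transcripts from these loci and not the mature microRNA. All 10 had a negative difference, as 58.8% of all genes did, with a median of −0.40, and 4 were separated downwards, against 31.8% of all genes. None passed the test with limma, at an adjusted p of 0.348 or more. At an unadjusted p under 0.05 there was also none. WT replicate 1 was the highest array for 9 of 10, and the share of all genes highest in that array was not counted. Several of these probe sets read low. *Mirlet7f-2* lay at 4.07 to 4.35 over the arrays, and *Mir98* and *Mirlet7f-1* at 4.60 to 4.87 outside WT replicate 1. *Mirlet7c-1* had 7.04 and 4.84 in WT and 4.80 and 4.85 in the KO-labelled arrays, with WT replicate 1 above the other 3 arrays. *Mirlet7d* likewise had 8.27 and 6.77 against 6.68 and 6.67. Against WT replicate 2 alone the median over the 10 genes was −0.09.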

How the data were processed

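Total RNA of E18.5 lung was hybridised to 1 array per sample. Per the submitters' processing notes, the authors made the deposited log2 values of 30177 probe sets with RMA in Affymetrix Expression Console (versions and probe set release not given in the sources used here). RMA corrects background, quantile-normalises and summarises probes, which compresses differences of dim or cross-hybridising probe sets. By annotation, 21789 probe sets have 1 symbol, 1621 have several, and 6767 are unnamed here. No detection call is given, and precision is limited by having 4 arrays.

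A linear model (limma 3.58.1, R 4.3.3, eBayes with no trend, 2 residual and 4.42 prior degrees of freedom) compared KO minus WT, with Benjamini-Hochberg adjustment over 19938 genes at 0.05. Intervals are limma's at 95%. The code was tested on simulated data. Plots used Python 3.11.15 and matplotlib 3.10.9.

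The members and lists were chosen with earlier results of these data known. Named genes are all members, list genes that passed or, otherwise, up to 6 per list with the smallest p, the 5 genes nearest in pattern to *Hmga2* and *Hmgn5*, and tissue markers. Genes outside this rule (*Hmgb4*, *Hmgb1-rs17*, *Tox4*, *Lef1*, *Tcf7l2*, *Cxcl12*, *Cxcr4*, *Cd24a*, *Lin28b*, *Gata6*, *Fzd2*, the genes nearest to *Hmgb2*, sex genes and let-7 genes) were picked with their values already known.

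The fit was repeated with a replicate block, median centring, cyclic loess, a filter on the dimmest 40 percent, averaged probe sets, eBayes with trend and robust, each array omitted, and a threshold of 0.10.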

Additional observations from a re-analysis of the deposited data

How the results depend on the processing

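For *Hmgb1*, *Hmgb2*, *Hmgb3*, *Hmgn1*, *Hmgn2* and *Hmgn5* the difference stayed positive in all 11 alternative fits, and for *Hmgn3* in all 10 that held it, since the filter on dim genes removes it. The *Hmga2* difference turned negative without WT replicate 1 (−0.069) and without KO replicate 1 (−0.076), and over the fits that omit 1 array it lay between −0.076 and 0.179. The count of HMG genes called was 0 in every fit on all 4 arrays and 1 (*Hmgb3*) at a threshold of 0.10. It was 0 to 5 when 1 array was left out, and the count past 1.2-fold was within 1.5 times the 5 reported in every setting. The 156 genes called became 294 with arrays centred on their median, 335 with cyclic loess, 301 of 11963 without the dimmest 40 percent of genes and 457 at a threshold of 0.10, and lay between 0 and 6292 with 1 array omitted (0 without KO replicate 2, with 968 at an unadjusted p under 0.05, 1 without KO replicate 1, 1638 without WT replicate 1). Of the 77 genes in the 7 lists, 0 were called, against 2 with median centring, 3 with cyclic loess, 4 without the dimmest genes, 1 with trend and robust, 5 at a threshold of 0.10 and 0 to 44 when 1 array was left out. Of the 10 genes nearest in pattern, 0 to 1 stayed when 1 array was left out. The cause was not tested. Replicate numbers are shared between the groups only as numbers: the deviations of WT and KO replicate 1 correlated at −0.238 over genes. With the replicate block 602 genes, 14 list genes and 0 HMG genes were called, and with a crossed replicate block, added after seeing the data, 512, 8 and 0.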
